A study of Mus musculus with 8 samples.

Results

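Retinoic acid is made, held, sensed and destroyed by a small set of gene families, and 10 of their genes are described here in the fetal mouse epididymal duct. They are the synthesis enzymes Aldh1a1, Aldh1a2 and Aldh1a3, the breakdown enzymes Cyp26a1 and Cyp26b1, the receptors Rara, Rarb and Rarg, and the binding proteins Crabp1 and Crabp2. The genes were chosen by symbol, through the Ensembl identifier of each row, and all 10 were found among the 46517 genes of the count table. Of these, 9 passed the filter on low counts, and Cyp26a1 did not.

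Total RNA of epididymal ducts, which form from the Wolffian duct, was sequenced at E18.5, shortly before birth. There were 4 control libraries, numbered 1, 3, 4 and 6, of genotype Ptk7+/flox. There were 4 libraries labelled Ptk7 knockout, numbered 1, 2, 4 and 5, in which the floxed allele was opposite Xst87, a disrupted allele of Ptk7. All 8 carried T-Cre, a Cre transgene known to act in mesoderm, and the mT/mG membrane reporter, so the controls too had a floxed allele exposed to Cre. The labels do not say whether each library came from 1 embryo or from a pool, so p-values speak only of the variation among these libraries, some or all of which could be technical.

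Vitamin A enters cells as retinol, is oxidised to retinaldehyde and is then turned into retinoic acid by the ALDH1A dehydrogenases. CYP26 enzymes oxidise retinoic acid further and so clear it, CRABP proteins bind it in the cytoplasm, and the RAR receptors, paired with RXR partners, bind DNA at direct repeats and switch target genes. In the urogenital tract retinoic acid is known for its part in the growth of the nephric and Wolffian ducts and in the timing of germ cell meiosis.

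Total counts per library ranged from 24807970 to 29590547. Ptk7, which encodes a catalytically inactive receptor kinase of planar cell polarity, stood between 112.5 and 313 CPM (counts scaled by library size and TMM factors) in controls. It was between 7.33 and 12.5 CPM in the libraries labelled knockout 1, 2 and 4. The library labelled knockout 5 had 194 CPM and so goes against its label, and results that rest on it are given with and without it. The log2 fold change of Ptk7 was -1.82 with all 8 libraries (SE 0.95, edgeR adjusted p = 0.655) and -4.42 without that library (SE 0.37, edgeR adjusted p = 0.00805). Its mitochondrial share of counts was also the lowest, 1.82% where the other libraries reached up to 3.47%. The duct was checked by its markers: all 16 duct epithelium genes, such as Epcam and Krt8, were above 1 CPM on average, as were all 12 of the mesenchyme, led by Col3a1 and Col1a1. Of the markers of neighbouring organs, 8 of 12 for the testis (Amh and Insl3 among them), all 6 for the adrenal cortex and 5 of 8 for nephrons (Nphs1 and Slc34a1 among them) averaged under 1 CPM. Mesothelium markers, 9 genes led by Upk3b and Myrf, summed to 528 to 645 CPM in controls and 672.6 to 869.9 CPM in the libraries labelled knockout, without overlap. Nephron markers did not overlap either (232 to 248 against 283 to 345 CPM), a sum carried by Podxl. Smooth muscle sums overlapped (3678 to 4404 against 2916 to 3685 CPM), but 5 of 10 of these markers were lower and 1 higher at an unadjusted p under 0.05 in edgeR, with a median log2 fold change of -0.31. Over all tested genes 4.87% were lower and 3.5% higher at such a p. Red cell sums overlapped too (794 to 2268 against 1362 to 3966 CPM), with all 7 markers above 0, a median of 0.77 and 2 at such a p. In these sums knockout 1, 2 and 4 (1362 to 1534 CPM) lay within the control range, and only the library labelled knockout 5 lay above it. Of the 7 markers, 1 had ranges apart, where 2.65% of all tested genes did with the labelled knockout higher. It was Hba-a2, at 10.1 to 22.1 CPM in controls and 54.1 to 178.9 in the labelled knockout. Endothelium, macrophage and ciliated cell sums also overlapped. In whole ducts, fewer cells of a type and less RNA per cell cannot be told apart.

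Of the 10 genes, Rarb and Cyp26a1 are textbook targets of retinoic acid, and their promoters are shown because each holds the direct repeat that its receptors bind. RefSeq promoter windows (GRCm38.p6, 250 bases before to 50 after a start) were at hand for 8 of the genes, 13 windows in all. They were searched on both strands for a DR5 element, which is a pair of half-sites with 5 bases between them. A half-site was AGTTCA or AGGTCA or GGTTCA or GGGTCA. The stretches below run 5′ to 3′ in the sense of the gene and end at the base before the RefSeq start, with the half-sites in capitals.
Rarb: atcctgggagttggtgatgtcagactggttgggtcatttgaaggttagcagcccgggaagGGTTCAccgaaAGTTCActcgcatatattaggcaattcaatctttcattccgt
Cyp26a1: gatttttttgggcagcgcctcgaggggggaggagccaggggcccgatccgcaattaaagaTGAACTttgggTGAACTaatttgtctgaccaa
The Rarb stretch is chr14:16575477-16575589 on the minus strand, and its repeat lies 53 to 37 bases before the start. The Cyp26a1 stretch is chr19:37697716-37697807 on the plus strand, and its repeat, which reads on the opposite strand to the gene, lies 32 to 16 bases before the start. Of all 32851 windows of the same length, 0.0974% held such a DR5. None of the 13 windows held the same half-sites with 2 or 1 bases between them (0.268% and 0.222% of all windows). A match is a description of letters and not a measured binding site. Of the 31 symbols with a DR5 in any window, 6 were tested, Rarb among them. Their median log2 fold change was 0.11, with 3 of 6 above 0, and edgeR called none.

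The 10 genes covered a wide range of expression in the duct, with Aldh1a2 and Aldh1a1 at the top. Levels between genes are compared per length, as CPM per kb of exon in the 4 controls. Aldh1a2 (176.7 ± 4.16, SD, n = 4) and Aldh1a1 (168 ± 37.7) were first and second, each above at least 97.7% of the 16469 tested genes, and their control ranges overlapped. Crabp1 (60.9 ± 7.98) and Crabp2 (29.0 ± 3.74) followed, each apart from its neighbours. Rarg (10.6 ± 1.68), Rara (10.4 ± 0.604), Aldh1a3 (10.4 ± 1.95) and Rarb (8.31 ± 0.648) formed a group in which each overlapped the next in the order. Cyp26b1 stood at 1.44 ± 0.173, below the receptors and above only 24.2% of tested genes. Cyp26a1 was last, at 0.0564 ± 0.0269. Thus Aldh1a1, Aldh1a2 and both binding genes were high, the receptors and Aldh1a3 were in the middle, and the breakdown genes were the lowest in transcript level. With the longest coding length of each gene in place of the exon length, the order was the same except that Rara (32.8 CPM per kb) stood before Rarg (31.6).

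**Figure D1:**
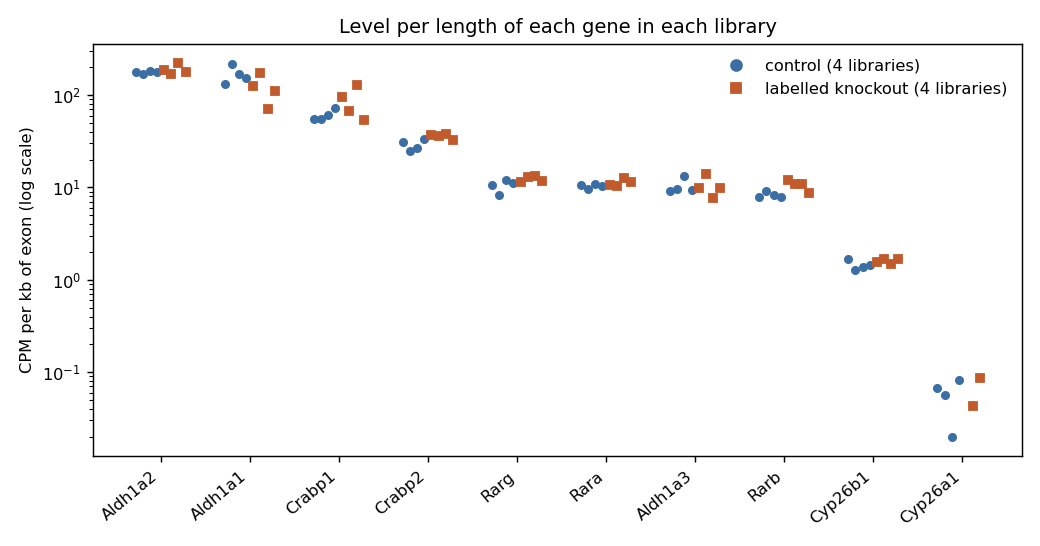
Level of each gene per length (CPM per kb of exon, log scale) in each of the 4 control libraries (circles) and the 4 labelled knockout (squares), in the order of the control means. Aldh1a2 and Aldh1a1 stand between 71.2 and 224, the receptors between 7.79 and 13.4, and Cyp26b1 below 1.70; libraries at 0 counts of Cyp26a1 are not drawn on the log axis.

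No gene of the set passed when the libraries labelled knockout were compared with control, a comparison made to ask which genes differ when Ptk7 is removed. Of the 9 tested, 0 were called at an adjusted p of 0.05 in edgeR's quasi-likelihood test, where the background over all 16469 genes was 0 called, or 0%. Adjusted p ran from 0.354 (Rarb) to 0.988 (Aldh1a3). At an unadjusted p under 0.05 there were 2, Rarb and Crabp2, both higher in the labelled knockout, and the background was 8.37% in either direction and 3.5% in that one. The median log2 fold change of the 9 was 0.15, with 7 above 0, beside 0.0055 and 51.4% for all tested genes. In none of the 9 were the ranges of the groups apart, where 5.76% of all tested genes had ranges apart, 2.65% with the labelled knockout higher.

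**Figure D2:**
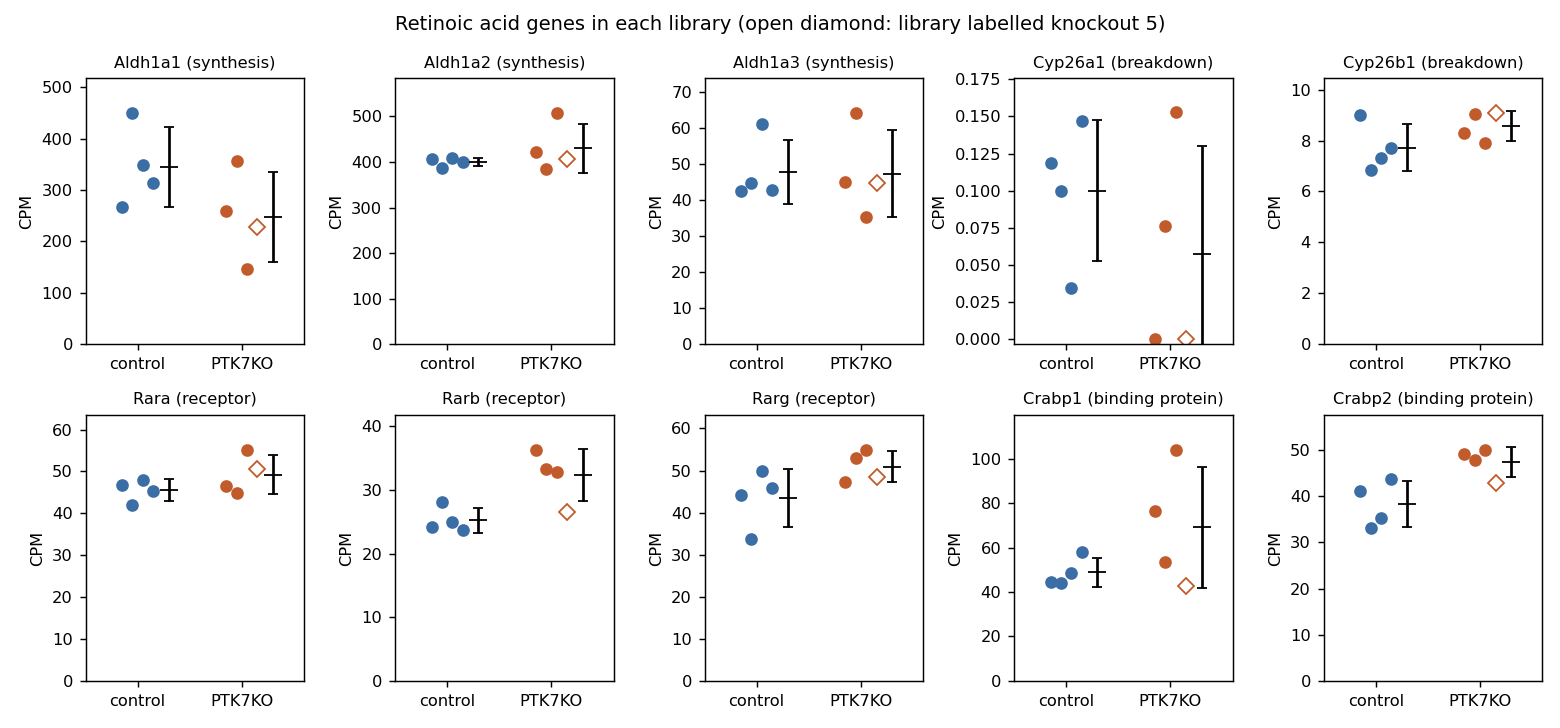
CPM of each gene in each library, with control and labelled knockout (PTK7KO) side by side, bars giving mean and SD of 4 libraries, and an open diamond for the library labelled knockout 5. All panels but Cyp26a1 start at 0 CPM; Rarb and Crabp2 are the genes in which 3 of 4 labelled knockout libraries lie above every control.

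Among the synthesis enzymes, Aldh1a1 and Aldh1a2 were about equal in controls but unlike in their steadiness. Aldh1a2 (ENSMUSG00000013584, GRCm38 chromosome 9, 71215789 to 71296243, plus strand, 14 exon blocks) encodes the main retinaldehyde dehydrogenase of the embryo. It stood at 406, 387, 408 and 399.8 CPM in controls 1, 3, 4 and 6, a spread of 2.35% of the mean. In the libraries labelled knockout 1, 2, 4 and 5 it was 422, 384, 507 and 406 CPM. Knockout 4 stood above all others, and knockout 2 below all controls, so the groups overlapped. The means were 400.1 ± 9.41 and 429.8 ± 53.9 CPM (SD, n = 4 each), a log2 fold change of 0.10 (95% interval -0.10 to 0.30, edgeR adjusted p = 0.778). Without knockout 4 it was 0.014.

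Aldh1a1 (ENSMUSG00000053279, chromosome 19, 20601961 to 20643462, plus strand, 13 exon blocks) encodes a dehydrogenase known from epithelia and stem cells. It stood at 268, 449.9, 349 and 313 CPM in controls 1, 3, 4 and 6. In the libraries labelled knockout it was 259, 357, 146 and 229 CPM in 1, 2, 4 and 5. Knockout 1, 4 and 5 lay below every control, and knockout 2 lay within the control range. The highest library had 3.08 times the level of the lowest, the widest span of the 9 tested genes. The mean was 345 ± 77.5 CPM in control and 248 ± 87.2 in the labelled knockout (SD, n = 4 each), a log2 fold change of -0.48 (95% interval -1.004 to 0.05, edgeR adjusted p = 0.635). The interval includes 0. Without knockout 4 the log2 fold change was -0.29 (edgeR adjusted p = 0.786). Duct epithelium markers summed to 1252 to 1455 CPM in controls and 1083 to 1501 in the labelled knockout, none of 16 at 0. At an unadjusted p under 0.05, 9 of the 16 were lower and 1 higher in edgeR, beside 4.87% and 3.5% of all tested genes. Their median log2 fold change was -0.32. edgeR called none of them, as of all tested genes. DESeq2 called 4 of the 16 lower, beside 128 of all 16469 tested genes. Without the library labelled knockout 5 it called 1 of them lower, beside 119 of 16697 genes. In either direction each fit called 1.13% of all tested genes. Within the labelled knockout the marker sum was lowest in knockout 4 (1083) and highest in knockout 2 (1501), the libraries with the lowest and highest Aldh1a1 of that label. Control 3, highest in Aldh1a1 of all libraries, had 1309. The part of the epithelium in the Aldh1a1 values was not tested.

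Aldh1a3 (ENSMUSG00000015134, chromosome 7, 66390892 to 66427517, minus strand, 15 exon blocks) encodes the third enzyme of the family. It stood at 42.5, 44.7, 61.3 and 43.0 CPM in controls and at 45.1, 64.3, 35.4 and 44.9 CPM in the libraries labelled knockout 1, 2, 4 and 5. Control 4 and knockout 2 stood apart above the others, and the means of 47.9 ± 8.995 and 47.4 ± 12.1 CPM were almost equal (log2 fold change -0.01, 95% interval -0.40 to 0.38, edgeR adjusted p = 0.988).

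Within the family, per length, Aldh1a1 made up 46.9% ± 5.84 and Aldh1a2 50.2% ± 5.66 of the control level, and Aldh1a3 2.93% ± 0.521 (SD, n = 4). In the labelled knockout the shares were 37.1% ± 10.4, 59.7% ± 10.9 and 3.17% ± 0.563. The balance was most uneven in knockout 4, where Aldh1a2 alone gave 74.0%. The groups overlapped in all 3 shares. The summed level of the family was 355 ± 34.9 CPM per kb in control and 321 ± 26.5 in the labelled knockout, also overlapping.

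**Figure D3:**
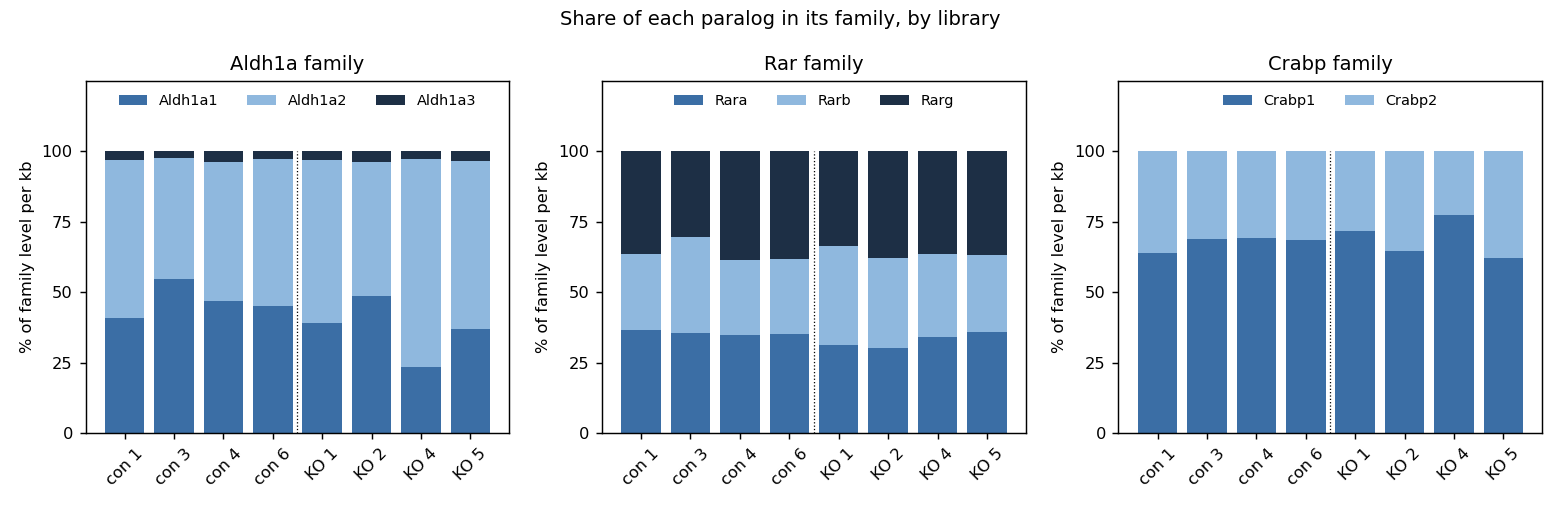
Share of each gene in the summed level per kb of its family (percent) in each library, for the Aldh1a, Rar and Crabp families, with controls (con) left and labelled knockout (KO) right of the dotted line. Aldh1a2 ranges from 42.8% in control 3 to 74.0% in knockout 4, while the Rar shares stay within 26.3% to 38.7% for each receptor.

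The breakdown enzymes were scarce. Cyp26b1 (ENSMUSG00000063415, chromosome 6, 84571414 to 84593908, minus strand, 9 exon blocks) is known in the fetal testis for keeping retinoic acid from germ cells. It stood at 9.01, 6.86, 7.31 and 7.72 CPM in controls and at 8.29, 9.04, 7.90 and 9.08 CPM in the libraries labelled knockout. Every library had between 206 and 237 counts, and the groups overlapped (log2 fold change 0.15, 95% interval -0.11 to 0.42, edgeR adjusted p = 0.754). The log2 fold change was 0.23 without control 1 and 0.099 without control 3. Cyp26a1 (ENSMUSG00000024987, chromosome 19, 37697808 to 37701528, plus strand, 7 exon blocks) is often the first gene to respond to retinoic acid. It had 3, 3, 1 and 4 counts in controls 1, 3, 4 and 6, and 0, 2, 4 and 0 in the libraries labelled knockout 1, 2, 4 and 5. A count of 0 in knockout 1 and 5 allows up to 0.115 and 0.123 CPM, an upper limit of 3 counts that covers counting error only. No difference was detectable at this depth. Cyp26c1, the remaining enzyme of that family, had 0 counts in all controls and 1 count in the labelled knockout. Cyp26b1 thus gave 96.3% ± 1.68 of the family level per kb in controls. Markers of the testis, where Cyp26b1 is known to be high, summed to 22.4 to 29.99 CPM in controls and 22.04 to 27.7 in the labelled knockout, most of it Sox9 and Cyp11a1. Cyp11a1 ranged from 6.25 to 8.19 CPM in controls and from 2.37 to 6.06 in the labelled knockout, without overlap. Of all tested genes, 5.76% had ranges apart in either direction. Gata4 and Star of that list averaged 2.42 and 1.95 CPM over the 8 libraries. Amh, Insl3 and Hsd3b1 were each at most 0.331 CPM in every library, and Dppa4 was at 0. The part of testis cells in the Cyp26b1 values was not tested.

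The 3 receptors were present at similar levels per length. Their summed level in each labelled knockout library was above every control, which held for no receptor alone. Per kb, Rara, Rarb and Rarg gave 35.6% ± 0.627, 28.5% ± 3.79 and 35.9% ± 3.83 of the control sum (SD, n = 4). In the labelled knockout they gave 32.9% ± 2.75, 31.0% ± 3.38 and 36.1% ± 1.75. The sum of the 3 was 29.4, 27.0, 31.4 and 29.3 CPM per kb in controls 1, 3, 4 and 6. In the libraries labelled knockout 1, 2, 4 and 5 it was 34.1, 34.2, 36.8 and 32.1. The lowest labelled knockout library, number 5, stood just above the highest control, so the sums did not overlap. Each of the 3 receptors alone did overlap between the groups. Of single tested genes, 5.76% had ranges apart, 2.65% with the labelled knockout higher, and no such share was computed for sums of genes. Summed mesothelium markers did not overlap either, again with the labelled knockout higher (672.6 CPM and above against 645 and below). At an unadjusted p under 0.05 in edgeR, 5 of 9 were higher, beside 3.5% of all tested genes. DESeq2 called 4 of these 9 markers higher, beside 58 of all 16469 tested genes. Without the library labelled knockout 5 it called 2 of them higher, beside 69 of 16697 genes (0.413%). In either direction each fit called 1.13% of all tested genes. The mesothelium sum was highest in the library labelled knockout 5 (869.9 CPM), the one with the lowest receptor sum of its label. The part of these markers in the receptor sums was not tested.

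Rarb (ENSMUSG00000017491, chromosome 14, 16430842 to 16575472, minus strand, 8 exon blocks) encodes the receptor whose own promoter carries the repeat printed above. It stood at 24.15, 28.03, 25.02 and 23.64 CPM in controls and at 36.3, 33.3, 32.9 and 26.6 CPM in the libraries labelled knockout 1, 2, 4 and 5. Knockout 1, 2 and 4 lay above every control, and the library labelled knockout 5 lay within the control range. The share of all tested genes with this order was not computed. That library differed from the others of its label in Ptk7, in its red cell sum and in its mitochondrial share. These features cannot be told apart here. The means were 25.2 ± 1.97 and 32.3 ± 4.09 CPM (SD, n = 4 each), a log2 fold change of 0.36 (SE 0.10, 95% interval 0.12 to 0.59). The edgeR p was 0.00618 and its adjusted p 0.354. Without the library labelled knockout 5, the mean was 34.2 ± 1.86 CPM (n = 3) and the log2 fold change 0.44 (SE 0.09, edgeR adjusted p = 0.214). DESeq2 gave an adjusted p of 0.117 with all 8 libraries and 0.00812 without that library, where it called 1.13% of all tested genes, 0.413% as higher. Rarb was the 1 member so called, in a fit chosen after the values were seen, and edgeR, which called 0.00599% of genes on the same 7 libraries, did not call it.

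Rarg (ENSMUSG00000001288, chromosome 15, 102234938 to 102257517, minus strand, 14 exon blocks) encodes a receptor known from skin and cartilage. It stood at 44.2, 33.7, 49.9 and 45.9 CPM in controls and at 47.2, 53.1, 54.9 and 48.4 CPM in the labelled knockout. Control 3 was the lowest library, and knockout 2 and 4 lay above all controls (log2 fold change 0.23, 95% interval -0.02 to 0.48, edgeR adjusted p = 0.636). Without control 3 its log2 fold change was 0.13 (edgeR adjusted p = 0.853). Rara (ENSMUSG00000037992, chromosome 11, 98927818 to 98974942, plus strand, 14 exon blocks) is the most widely expressed of the receptors. It stood at 46.9, 41.9, 47.9 and 45.2 CPM in controls and at 46.6, 44.8, 55.2 and 50.5 CPM in the labelled knockout. Knockout 4 and 5 lay above the controls and knockout 1 and 2 among them (log2 fold change 0.12, 95% interval -0.07 to 0.30, edgeR adjusted p = 0.736). Without knockout 4 its log2 fold change was 0.057.

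Of the binding proteins, Crabp2 was higher in 3 of 4 labelled knockout libraries and Crabp1 varied widely within that label. Crabp2 (ENSMUSG00000004885, chromosome 3, 87948666 to 87953376, plus strand, 4 exon blocks) encodes a protein that carries retinoic acid to its receptors in the nucleus. It stood at 41.2, 33.1, 35.4 and 43.8 CPM in controls and at 49.2, 47.8, 50.1 and 42.8 CPM in the libraries labelled knockout 1, 2, 4 and 5. As with Rarb, number 5 was the lowest of its label and lay within the control range. The means were 38.4 ± 4.95 and 47.5 ± 3.24 CPM (SD, n = 4 each), a log2 fold change of 0.31 (SE 0.10, 95% interval 0.09 to 0.53). The edgeR p was 0.0106 and its adjusted p 0.389. Without the library labelled knockout 5 the log2 fold change was 0.36 (edgeR adjusted p = 0.343, DESeq2 adjusted p = 0.132).

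Crabp1 (ENSMUSG00000032291, chromosome 9, 54764748 to 54773110, plus strand, 4 exon blocks) encodes a cytoplasmic carrier known from neural crest, neurons and embryonic mesenchyme. It stood at 44.5, 44.2, 48.6 and 57.9 CPM in controls and at 76.3, 53.3, 103.9 and 42.7 CPM in the libraries labelled knockout 1, 2, 4 and 5. Knockout 4 had the highest value of the 8 libraries and knockout 5 the lowest, so the labelled knockout spanned the whole control range. The means were 48.8 ± 6.40 and 69.0 ± 27.2 CPM (SD, n = 4 each), a log2 fold change of 0.50 (95% interval -0.01 to 1.01, edgeR adjusted p = 0.606). Without the library labelled knockout 5 it was 0.67 (SE 0.19, edgeR adjusted p = 0.338, DESeq2 adjusted p = 0.0529), and without knockout 4 it was 0.23 (edgeR adjusted p = 0.809). Neuron and Schwann cell markers, 8 of 10 tested and led by Stmn2 and Erbb3, summed to 69.4 to 87.4 CPM in controls. In the libraries labelled knockout 1, 2, 4 and 5 they summed to 97.7, 86.8, 119 and 75.2 CPM, highest in 4 and 1 as was Crabp1. That order was carried by Stmn2, at 52.08, 38.61, 74.02 and 37.71 CPM in the same libraries. Erbb3 was highest of that label in knockout 2 (30.83 CPM). Its mean was 29.03 CPM in control and 25.51 in the labelled knockout. Of the 8 tested markers in the list, 6 had a log2 fold change above 0 and 2 below, with a median of 0.34. Th, Tubb3 and Elavl4 of that list averaged under 1 CPM, and its part in the Crabp1 values was not tested.

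Other genes of the retinoid pathway had fold changes on both sides of 0. Of 69 genes matched, 19 were too low to test and 50 were tested. In the edgeR test 0 were called, with 6 higher and 4 lower at an unadjusted p under 0.05, beside 3.5% and 4.87% of all tested genes. Their median log2 fold change was -0.0047. The ranges of the groups were apart in 4 of the 50 with the labelled knockout higher and in 2 with it lower. Over all tested genes 5.76% had ranges apart, 2.65% with the labelled knockout higher. Some genes named below were chosen for a small p, which favours ranges apart. The lists were drawn up with earlier results of these data known, and some genes stand in more than one list. By list, 1 higher and 1 lower of 16 stood in synthesis and uptake, 2 and 1 of 16 in partner receptors and cofactors, and 4 and 3 of 20 among target genes. None of 2 binding proteins and of 1 breakdown gene was under that p. Medians were -0.05 for synthesis and uptake, 0.11 for binding proteins, 0.13 for breakdown, -0.07 for partners and 0.05 for targets.

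Uptake and the first oxidation step were well represented, and no gene in them passed. Stra6, the membrane receptor for retinol carried in blood, stood at 75.1 ± 14.2 CPM in control and 69.4 ± 4.35 in the labelled knockout. Rbp4, that blood carrier, stood at 19.4 ± 6.82 and 21.8 ± 1.37 CPM. Rdh10, the chief retinol dehydrogenase of the embryo, stood at 63.7 ± 6.25 and 69.9 ± 2.16 CPM (log2 fold change 0.14, edgeR adjusted p = 0.686). Dhrs3, which turns retinaldehyde back to retinol, stood at 39.1 ± 5.07 and 44.7 ± 5.67 CPM (0.19, edgeR adjusted p = 0.693). The alcohol dehydrogenase Adh5 (34.5 CPM per kb) and Cyp1b1 (36.9), an oxidase that can act on retinoids, were among the 6 pathway genes with the highest control level per length outside the 10. Rdh1, another retinol dehydrogenase, was lowly expressed, at 0.956 ± 0.215 CPM in control and 0.436 ± 0.211 in the labelled knockout, without overlap (log2 fold change -1.12, SE 0.36, edgeR adjusted p = 0.384).

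RXR partners were present through Rxra and Rxrb. Rxra stood at 147 ± 23.1 CPM in control and 153.5 ± 9.06 in the labelled knockout (log2 fold change 0.06, edgeR adjusted p = 0.895). Rxrb stood at 70.1 ± 23.2 and 83.3 ± 5.49 CPM (0.25, edgeR adjusted p = 0.776), with control 3 low at 35.7 CPM. Rxrg had 12 counts summed over the controls and 15 over the labelled knockout. Nr2f1, an orphan receptor that can occupy the same repeats, stood at 39.4 ± 3.24 and 49.2 ± 5.93 CPM without overlap (0.32, SE 0.10, edgeR adjusted p = 0.367). Its relative Nr2f2 stood at 242.9 ± 17.9 and 245.9 ± 12.4 CPM. Nrip1, a corepressor, stood at 96.6 ± 14.3 in control and 77.0 ± 3.39 CPM in the labelled knockout, again without overlap (log2 fold change -0.33, SE 0.10, edgeR adjusted p = 0.358).

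Among target genes the values went both ways. Meis1, a homeobox factor, stood at 139.9 ± 5.45 CPM in control and 165 ± 6.25 in the labelled knockout, without overlap (log2 fold change 0.24, SE 0.07, edgeR adjusted p = 0.302). DESeq2 called Meis1 (adjusted p = 0.0276), as it did 1.13% of the 16469 tested genes. Without the library labelled knockout 5 DESeq2 did not call Meis1 (adjusted p = 0.081). Ret, the receptor tyrosine kinase of the ureteric bud and of enteric neurons, stood at 1.07, 0.633, 0.766 and 0.662 CPM in controls. In the libraries labelled knockout 1, 2, 4 and 5 it stood at 2.34, 2.44, 1.76 and 0.695 CPM. Knockout 1, 2 and 4 were above all controls and the library labelled knockout 5 was among the controls. With all 8 libraries the log2 fold change was 1.22 (edgeR adjusted p = 0.364, DESeq2 adjusted p = 0.123). Without number 5 it was 1.48 (edgeR adjusted p = 0.179). DESeq2 without number 5, a fit chosen after the values were seen, gave an adjusted p of 0.00245. That fit called 1.13% of all tested genes, 0.413% as higher. Ret had 86 counts summed over the controls and 188 over the labelled knockout. Pdgfra stood at 769.7 ± 83.6 and 662.7 ± 31.4 CPM (-0.22, edgeR adjusted p = 0.531) and Tgm2 at 349.9 ± 61.6 and 404 ± 72.0 CPM (0.21, edgeR adjusted p = 0.744). Stra8, which marks germ cells entering meiosis under retinoic acid, had no count in any library, which allows at most 0.123 CPM in each.

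**Figure D4:**
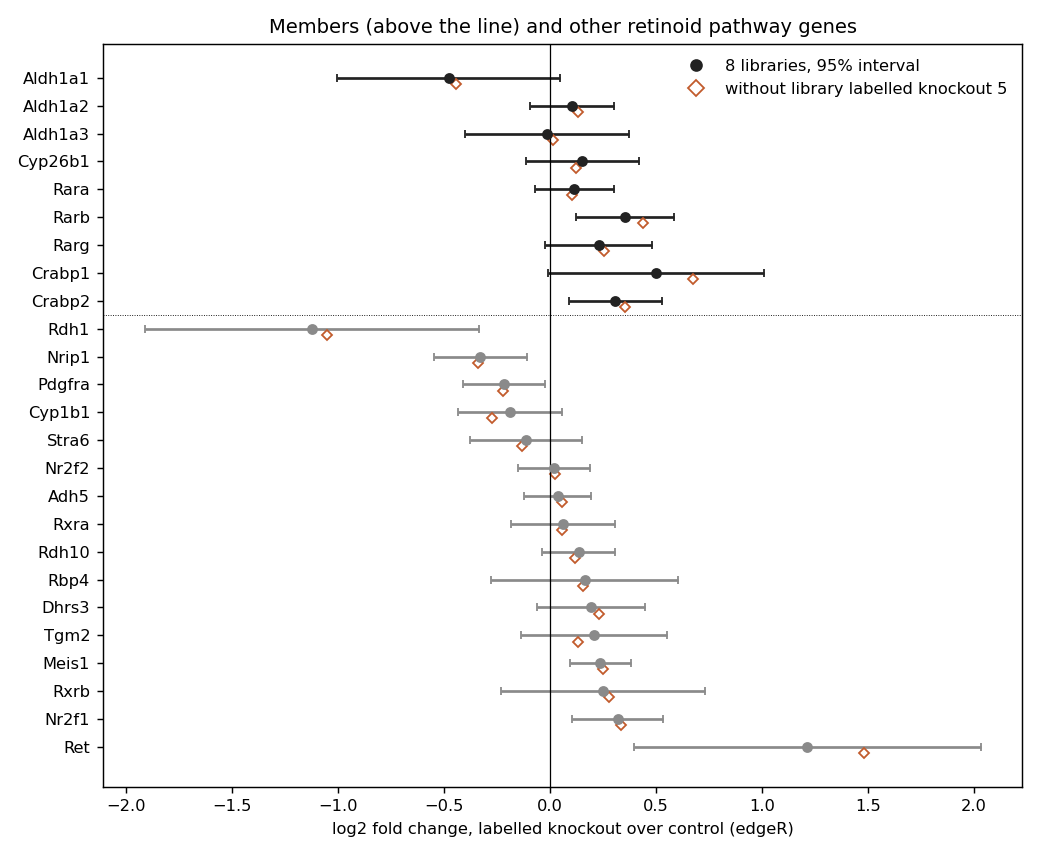
Log2 fold change of the labelled knockout over control in edgeR (circles, with 95% intervals from all 8 libraries) and without the library labelled knockout 5 (diamonds), for the 9 tested members above the dotted line, by role, and 16 other pathway genes below it, by fold change. The intervals of Rarb and Crabp2 lie above 0 before adjustment, and that of Aldh1a1 runs from -1.004 to 0.05.

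Some of the genes varied together from library to library. All 36 pairs of the 9 tested genes were compared over the 8 libraries on log2 CPM, with exact two-sided permutation and Benjamini-Hochberg adjustment over the pairs. At an unadjusted p under 0.05 there were 5 pairs, and 1 passed by Pearson's r. Aldh1a1 and Rara had r = -0.93 (exact permutation p = 0.00136, adjusted p = 0.0491) and Spearman's rho = -0.83 (exact permutation p = 0.0154, adjusted p = 0.392). Without control 3 and knockout 4, the 2 libraries farthest from the median of Aldh1a1, r was -0.65 over 6 libraries (exact permutation p = 0.158). The relation did not pass without those libraries, whose removal also narrows the range of Aldh1a1. Within the groups r was -0.74 in control and -0.97 in the labelled knockout, each over 4 libraries, too few for a test. Aldh1a1 and Aldh1a2 had r = -0.89 (exact permutation p = 0.00501, adjusted p = 0.0902) and rho = -0.74 (exact permutation p = 0.0458, adjusted p = 0.412), and r = -0.58 without the same libraries. Aldh1a2 and Rara had r = 0.85 (exact permutation p = 0.00836, adjusted p = 0.10) and rho = 0.76 (exact permutation p = 0.0368, adjusted p = 0.412). Their r was 0.62 without knockout 4 and 2. All pairs share the same 8 libraries, of both groups, and their scaling.

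For the tested members the gene most like it was sought among 11375 genes with a mean of at least 5 CPM, by Pearson's r of log2 CPM over the 8 libraries. These are the highest of many values and are given as a description. Aldh1a1 was most like Ap1m2 (r = 0.99), which ran from 21.7 CPM in knockout 4 to 41.9 in control 3. Aldh1a2 was most like Cntln (r = 0.99), highest in knockout 4 at 52.4 CPM as was Aldh1a2. Rarb was most like Rsph9 (r = 0.95), with 4.62 to 6.13 CPM in controls, 6.601 to 7.29 in knockout 1, 2 and 4, and 4.95 in knockout 5. Crabp2 was most like Nsg1 (r = 0.98), Crabp1 like Fez1 (0.96), Rarg like Sox12 (0.98), Cyp26b1 like Aldoa (0.97) and Aldh1a3 like Pknox2 (0.94).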

How the data were processed

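RNA was sequenced from 8 libraries of mouse epididymal ducts, 4 per group. The authors deposited raw read counts per gene, 1 column per library, with no normalization, and a deposited length (all exons of a gene, in bases). Per the submitters' processing notes, STAR and featureCounts were used on GRCm38. The sources used here do not give versions, strand setting or annotation release. No exon of the 10 genes overlaps one of another gene in the table. None of the 28 library pairs agreed within sampling noise (the chi-square divided by its degrees of freedom was 13.7 or more), so none was merged with another. This does not show separate animals.

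Symbols came from GENCODE M21 identifiers, and 46005 of 46517 matched. Genes kept by filterByExpr (16469) were tested with edgeR 4.0.16 (R 4.3.3, TMM factors, quasi-likelihood F test on group, all 8 libraries, Benjamini-Hochberg over all tested genes). The biological coefficient of variation was 15.2%. The SE is the size of the log2 fold change divided by the square root of F. DESeq2 1.42.0 and limma 3.58.1 (voom with sample quality weights) were alternatives, with other scalings, other filters, a replicate block, and each library left out. Code was tested on simulated data. Figures used matplotlib 3.10.9.

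The members and the gene lists were chosen with earlier results of these data known. Named were the 10 members, Ptk7, the 6 pathway genes with the smallest p, the 6 with the highest level per length, 10 set pathway genes, the 2 most abundant of each marker list, the marker with the smallest p in a list without overlap, and the gene most like each member. Other markers at low levels were named after their values were seen. Some genes that this rule names are not reported here.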

Additional observations from a re-analysis of the deposited data

Results flagged for a closer look

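In 56 groups of 4 libraries (members, Ptk7 and named pathway genes), 4 held a library whose gap to the rest passed Dixon's 95% critical value, and chance gives about 1 in 20. Aldh1a3 in control 4 stood at 61.28 CPM, above the other controls. Ptk7 stood at 194.3 CPM in the library labelled knockout 5, far above the others of its label. Cyp1b1 in control 1 stood at 226.2 CPM, above the other controls. Rxrb in control 3 stood at 35.69 CPM, below the other controls.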

How the results depend on the processing

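No setting of edgeR and no fit by voom called any of the 10 genes, and with each library left out in turn edgeR called 0 members, 0 other pathway genes and 0 to 2 genes in all. Over all genes edgeR called 1 with no filter on low counts, 1 without the library labelled knockout 5 and 2 without control 1, while DESeq2 called 186. DESeq2 without the library labelled knockout 5, chosen after seeing the data, called 188, among them 1 member (Rarb, log2 fold change 0.44). DESeq2 called 2 other pathway genes (Meis1 at 0.24 among them) and 1 without that library (Ret, 1.49). Ptk7 ranged from -4.42 to -1.46 over the left-out libraries, and DESeq2 without number 5 gave -4.42. Only numbers 1 and 4 occur in both groups, and the deviations of same-numbered libraries correlated at -0.09 and 0.02. So few pairs cannot settle whether same-numbered libraries share a litter or a batch. With the replicate block over those 4 libraries 7 genes were called and no member, and Ptk7 was at -4.67. Under the replicate block Cyp26b1 (-0.0035), Tgm2 (-0.14), Rxra (-0.00096) and Rxrb (-0.019) changed sign.

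Aldh1a3, near 0, changed sign under voom (0.032), without control 4 (0.13), without knockout 1 (0.01), 4 (0.10) or 5 (0.01), and with DESeq2 without 5 (0.016), over a left-out range of -0.195 to 0.13. Other uncalled genes that changed sign were Nr2f2 without control 4 (-0.0071) or 6 (-0.019) or knockout 4 (-0.02; range to 0.054), Adh5 without knockout 2 (-0.0069; to 0.068), Rxra under voom (-0.029) or without control 3 (-0.045; to 0.123), and Stra6 without control 1 (0.0082; from -0.203). Voom gave -0.27 for Aldh1a1, 0.048 for Aldh1a2, 0.044 for Rara and 0.15 for Rarg, over 1.5 times below edgeR, and the replicate block gave 0.19 for Aldh1a2, 0.12 for Rarg and 0.94 for Crabp1. The cause was not tested.

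With the longest GENCODE coding length, an added setting, family shares in control and labelled knockout were 6.02% and 6.48% for Aldh1a3, 39.5% and 36.8% for Rara, 22.7% and 24.9% for Rarb, and 56.2% and 57.9% for Crabp1, and 38.3% for Rarg in the labelled knockout. Rara then ranked 5 and Rarg 6. Leaving out a control moved ranks between 1 and 2 for Aldh1a1 and Aldh1a2, and between 5 and 7 for Aldh1a3, Rara and Rarg. The alternative with RefSeq protein lengths was not run, since those lengths were not used here. At 0 to 4 counts per library, depth limits Cyp26a1.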
